A study of Arabidopsis thaliana with 4 samples.

Results

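The positions described here are 2175 of 11478 listed Pol V summits in Arabidopsis thaliana (18.9%, Wilson 95% interval 18.2 to 19.7), those in the promoters of genes of a single strand. A summit was taken when it lay outside every gene and pseudogene of the RefSeq TAIR10.1 annotation, within 1000 bp upstream of the start of protein-coding genes of 1 strand only, and not within 1000 bp downstream of the end of any protein-coding gene. Each summit was assigned to its nearest downstream gene start, and 1128 of them faced a gene on the plus strand and 1047 a gene on the minus strand. The series studied how DRD1, DMS3 and RDM1 occupy chromatin where RNA polymerase V (Pol V) does, with 4 anti-FLAG ChIP-seq libraries from inflorescences of DRD1-3xFLAG, DMS3-3xFLAG and RDM1-3xFLAG plants and of untransformed Col-0 plants, 1 library each. Their signals were not analysed here. The deposited list of Pol V summits is 1 peak call made from published anti-Pol V ChIP-seq reads against a no-antibody control. The list has no replicates and no read depth, so the values below are a description with no test, and their intervals cover counting error only.

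Pol V is a plant-specific relative of RNA polymerase II that transcribes non-coding scaffold RNAs. Small RNAs bound to ARGONAUTE4 pair with these scaffolds and bring the methyltransferase DRM2 to the DNA, which is then methylated at cytosines in the CG, CHG and CHH contexts (H is A, C or T). This pathway, RNA-directed DNA methylation, acts mostly on short transposon remnants and other repeats, many of which lie just upstream of genes. DRD1, DMS3 and RDM1 form the DDR complex, which is needed for Pol V to occupy chromatin.

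The sequences below show the DNA at the 3 highest-scoring promoter summits and at the summit upstream of ROS1, up to 100 bp on each side of the summit and ending at the base before the gene start where the gene begins within that window. They are from the RefSeq TAIR10.1 assembly, are read 5′ to 3′ towards the gene, and have every CG dinucleotide in capitals.
AT3G49270 (chr3:18268659-18268859, minus strand): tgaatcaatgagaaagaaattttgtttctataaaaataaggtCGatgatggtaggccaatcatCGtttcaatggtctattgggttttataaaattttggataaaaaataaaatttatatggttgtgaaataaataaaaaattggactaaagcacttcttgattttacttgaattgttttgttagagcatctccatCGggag
ftsh7 (chr3:17332343-17332543, plus strand): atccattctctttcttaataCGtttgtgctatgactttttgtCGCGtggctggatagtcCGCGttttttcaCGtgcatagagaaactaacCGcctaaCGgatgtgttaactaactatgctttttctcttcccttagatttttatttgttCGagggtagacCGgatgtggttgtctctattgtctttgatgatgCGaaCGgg
AT2G18600 (chr2:8075010-8075177, minus strand): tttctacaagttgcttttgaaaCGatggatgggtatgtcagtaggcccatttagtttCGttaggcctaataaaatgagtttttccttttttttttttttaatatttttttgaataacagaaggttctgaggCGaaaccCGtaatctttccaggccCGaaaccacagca
ROS1 (chr2:15314808-15314952, minus strand): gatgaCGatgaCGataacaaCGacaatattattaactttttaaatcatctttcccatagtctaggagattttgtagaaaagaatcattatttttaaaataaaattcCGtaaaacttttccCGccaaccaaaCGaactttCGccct
AT3G49270 codes for an extensin-like protein, a kind of cell wall protein. Its summit had a score of 1504, the highest among the promoter summits and rank 8 in the whole list, and lay 488 bp upstream. Its window held only 3 CG dinucleotides. The summit upstream of ftsh7, which codes for a chloroplast FtsH protease, scored 1376 at 483 bp, and its window held 12. The summit upstream of AT2G18600, a gene of the ubiquitin-conjugating enzyme family, scored 1353 at 68 bp. ROS1 (AT2G36490, DML1 in the annotation) codes for the DNA glycosylase that cuts 5-methylcytosine out of DNA. Its summit scored 1058 and lay 45 bp upstream. The number of CG dinucleotides thus varied widely among high-scoring summits.

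The next sequences are pairs of promoter summits that shared sequence, from the 3 largest groups found by BLASTN, with the aligned part printed on matching strands and CG dinucleotides again in capitals.
AT3G21465 (chr3:7560228-7560399, plus strand): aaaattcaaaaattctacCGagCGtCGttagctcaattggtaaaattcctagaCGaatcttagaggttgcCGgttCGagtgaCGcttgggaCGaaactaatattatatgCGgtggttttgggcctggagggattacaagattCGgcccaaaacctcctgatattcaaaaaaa
AT1G44835 (chr1:16939256-16939426, plus strand): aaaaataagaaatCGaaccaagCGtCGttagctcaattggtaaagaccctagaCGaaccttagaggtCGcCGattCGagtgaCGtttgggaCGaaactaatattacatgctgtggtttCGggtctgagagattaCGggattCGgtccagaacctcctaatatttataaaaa
AT5G22480 (chr5:7457380-7457562, minus strand): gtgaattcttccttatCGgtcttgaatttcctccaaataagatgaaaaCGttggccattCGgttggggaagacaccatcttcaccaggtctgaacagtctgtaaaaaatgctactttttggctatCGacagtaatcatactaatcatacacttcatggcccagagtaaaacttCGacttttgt
AT4G04990 (chr4:2554463-2554635, minus strand): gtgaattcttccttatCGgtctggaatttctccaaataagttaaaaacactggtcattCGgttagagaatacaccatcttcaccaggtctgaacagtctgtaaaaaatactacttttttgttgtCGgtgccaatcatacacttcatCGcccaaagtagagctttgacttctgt
AT3G50520 (chr3:18747729-18747867, plus strand): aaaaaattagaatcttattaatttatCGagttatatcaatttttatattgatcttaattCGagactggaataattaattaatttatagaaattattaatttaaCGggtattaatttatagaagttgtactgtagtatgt
AT4G19420 (chr4:10592019-10592151, plus strand): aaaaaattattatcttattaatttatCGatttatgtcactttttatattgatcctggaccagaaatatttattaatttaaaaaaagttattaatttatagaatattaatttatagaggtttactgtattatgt
AT3G21465 and AT1G44835, on different chromosomes, were 84.3% identical over this stretch and held 10 and 12 CG dinucleotides. AT5G22480 and AT4G04990 were 82.5% identical. AT3G50520 and AT4G19420 were 80% identical, with 18.7% and 16.5% G and C bases. Each pair was alike over more than 100 bp and differed at many bases.

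Promoter summits were dense for their share of the genome. The bases that the position rule admits, called admitted bases, summed to 9.59 Mb, and the summits in them came to 227 per Mb (exact Poisson interval 217 to 237). Downstream-only gaps, within 1000 bp after a gene end and not before a start, held 212 per Mb (202 to 224). Gaps between divergent gene starts held 192 per Mb (171 to 214), distal gaps further than 1000 bp from any protein-coding gene held 169 per Mb (163 to 175), and tandem gaps that were both upstream and downstream held 164 per Mb (152 to 176). Genes and pseudogenes held 44.8 per Mb (43.3 to 46.3). The promoter interval overlapped that of downstream-only gaps and lay above those of the divergent, distal, tandem and genic places. By chromosome, promoters held 212 per Mb on chromosome 1, 256.3 per Mb on chromosome 2, 222 per Mb on chromosome 3, 235 per Mb on chromosome 4 and 219.6 per Mb on chromosome 5. Of these, only the intervals of chromosomes 1 and 2 did not overlap.

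Within the 1000 bp, summits were sparse next to the gene start. The first 100 bp held 135 summits, or 111 per Mb (92.9 to 131), the next 100 bp 169.6 per Mb (147 to 195), and the third 100 bp 213 per Mb (187 to 243). The steps from 301 to 400 bp and from 401 to 500 bp held 281 per Mb (249.9 to 316) and 289 per Mb (257 to 325). Beyond 500 bp the density lay between 235 and 272 per Mb, with intervals that overlapped. The density at 401 to 500 bp was 2.61 times that of the first 100 bp. The median distance was 484 bp (464 to 498; quartiles 291 and 712.5 bp), against 432 bp for the admitted bases themselves. The distance limit did not coincide with a gap in the values. The 3 summits just inside it, each at 1000 bp, were those of AT1G42430, ELF4-L3 and HAT14, with scores of 114, 239 and 417, and the 3 just outside, at 1003, 1004 and 1004 bp from AT5G45730, AT2G06420 and AT3G14205, had scores of 446, 50 and 129.

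**Figure D1:**
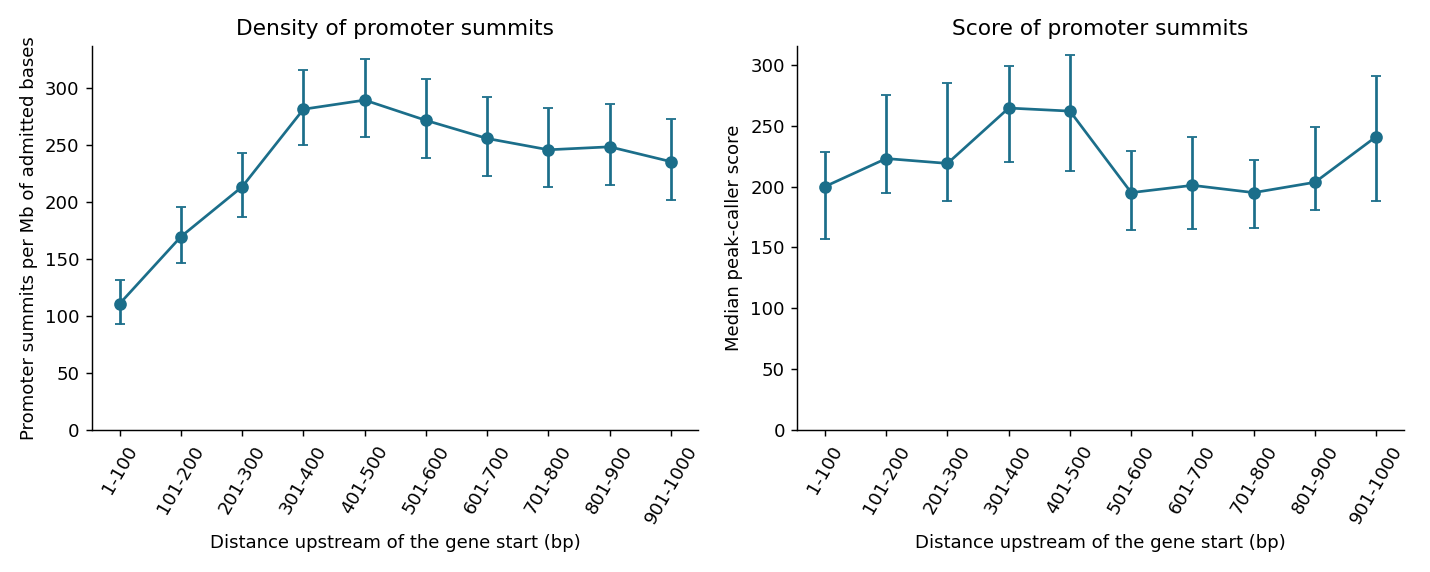
Density of promoter summits per Mb of admitted bases (left) and their median peak-caller score (right) in 100 bp steps upstream of the gene start, with 95% intervals. The density is lowest in the first 100 bp, at 111 per Mb, and highest at 401 to 500 bp, at 289 per Mb, while the median scores lie between 195 and 264.5 with intervals that overlap.

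The score is the peak caller's whole number for each summit, on a scale that the sources used here do not state, and it ran over 28 to 1504 in promoters. Promoter summits had a median score of 219 (207 to 232; quartiles 105 and 413.5). This was above the medians of downstream-only summits, 191 (quartiles 97 and 372, with an interval that ended below that of promoter summits), distal summits, 158 (152 to 167), and summits inside genes or pseudogenes, 116 (109 to 123). It was below the median between divergent gene starts, 308 (277 to 344), and its interval overlapped that of tandem gaps, 249 (215 to 275). Taken in pairs, a promoter summit scored higher than a distal one in 58.9% of pairs and higher than a divergent one in 42.1%. Of the 173 summits in the list with a score of 1000 or more, 48 were promoter summits (27.7%, 21.6 to 34.9), and of the 3821 with a score under 100, 510 were (13.3%, 12.3 to 14.5). Across the 2175 promoter summits the score had a rank correlation of -0.043 with the distance to the gene start and of 0.22 with the GC content within 250 bp. These points share 1 peak call, and the part of base composition in the sequencing itself was not tested.

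**Figure D2:**
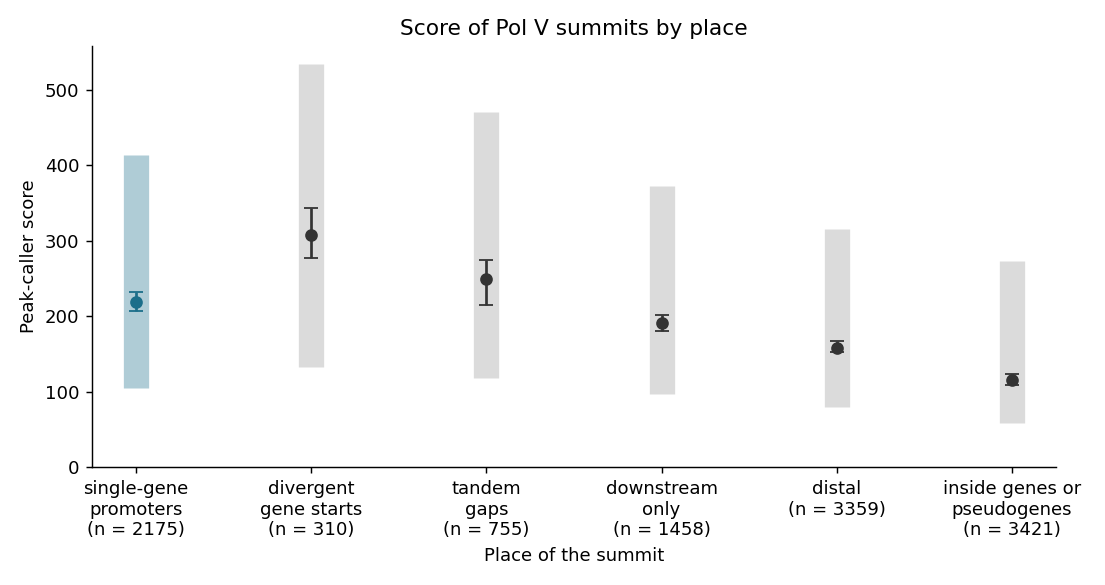
Peak-caller score of Pol V summits by place, with the median and its 95% interval (points and bars) and the range between quartiles (shaded). Promoter summits, with a median of 219, lie below those between divergent gene starts, at 308, and above distal summits, at 158, and summits inside genes or pseudogenes, at 116.

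The 12 highest-scoring promoter summits lay at 68 to 974 bp and belonged to genes of many kinds. After the 3 shown above came AT5G16350, of a wax ester synthase-like acyltransferase family, with 1340, and AT5G28237, a pyridoxal phosphate-dependent enzyme gene, with 1337. 3BETAHSD/D2, a sterol dehydrogenase gene, had 1295. ABH1, which codes for the large subunit of the nuclear cap-binding complex, had 1289 at 83 bp. Genes of membrane traffic and small GTPases followed, with ARLA1A at 1284, SGP2 at 1253 and the syntaxin gene SYP31 at 1231. AT5G17440, related to the splicing factor LUC7, had 1228, and AT5G27860, which codes for an uncharacterized protein, had 1212. Of these 12 summits, those of AT5G16350 and SGP2 had 47 and 43 sequence copies elsewhere, and those of AT3G49270, ABH1, SYP31, AT5G17440 and AT5G27860 had none.

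Base composition differed from that of admitted positions close to the summit. Within 250 bp the median GC content was 29.3% (28.9 to 29.5) at promoter summits and 29.7% at admitted positions tiled every 100 bp, and at equal distance to the gene the means differed by 0.074 percentage points (± 0.202, a 95% half-width from the standard error). This difference was 0.74 for summits at or above the median score of the list, 0.29 with 2000 bp upstream and 0.23 after merging of nearby summits, with intervals above 0, and it was -0.18 with 500 bp upstream, so no direction holds for it. Within 100 bp the summits were 1.30 percentage points (± 0.265) higher than admitted positions at the same distances, with medians of 30.3% and 29.4%. At the summit itself the mean GC content was 31.1%, against 29.3% at admitted positions, while 200 bp away on the far side from the gene it was 28.4% at promoter summits, against 29.4% at admitted positions. At 150 bp towards the gene it was 29.1% at promoter summits and 30.7% at admitted positions. This profile was not matched for distance to the gene, and admitted positions lay nearer to it (median 432 bp, against 484 bp). The part of distance in the differences along the profile was not tested. The profile of promoter summits itself showed a narrow rise flanked by a dip on each side.

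**Figure D3:**
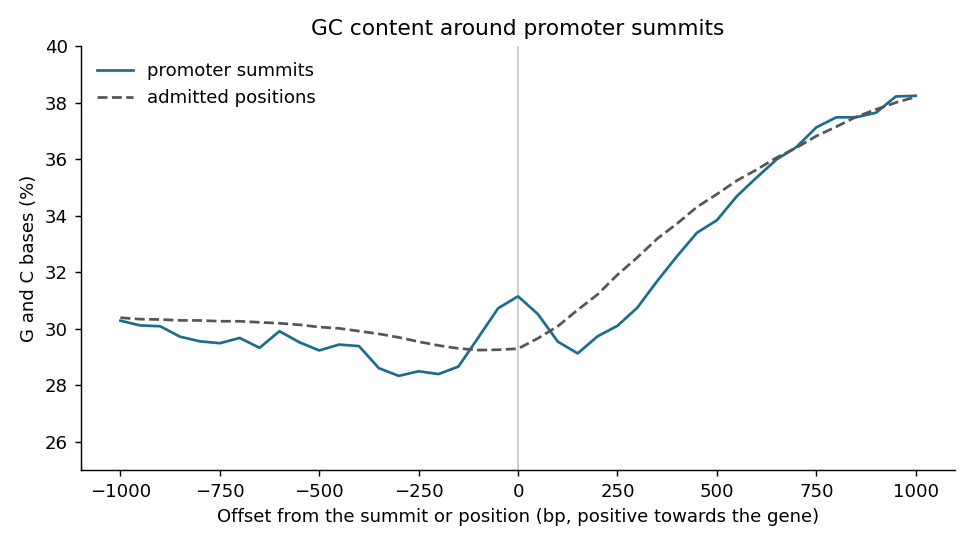
Mean GC content around promoter summits (solid) and around admitted positions (dashed), from 1000 bp on the far side to 1000 bp towards the gene; the vertical axis starts at 25%. The summits show a narrow rise to 31.1% where the admitted positions are at 29.3%, with lower values on both sides of it. The curves are not matched for distance to the gene.

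The rise was in cytosines of the CG and CHG contexts. Counted on both strands within 100 bp of the summit, promoter summits had a mean of 4.595 CG cytosines per 100 bp, against 3.64 at admitted positions at the same distances, a difference of 0.95 (± 0.129). CHG cytosines came to 3.52 per 100 bp at promoter summits and 2.92 at admitted positions, a difference of 0.60 (± 0.098). CHH cytosines, the most frequent kind, came to 22.5 per 100 bp at promoter summits and 22.7 at admitted positions, a difference of -0.26 (± 0.195) whose sign turned with 2000 bp upstream or with higher-scoring summits alone. Windows with no CG at all made up 4.87% of promoter summits (4.05 to 5.86) and 7.79% of admitted positions. In the first 100 bp the CG means were close, 4.44 at promoter summits and 4.26 at admitted positions, and at 401 to 500 bp they were 4.87 and 3.54. CG content was only weakly related to the score, with a rank correlation of 0.070 over the 2175 summits. Of the other places, summits inside genes or pseudogenes had 6.20 CG cytosines per 100 bp, tandem gaps 5.18, divergent gaps 4.93, downstream-only gaps 4.72 and distal gaps 4.29.

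The TATA box, other regulatory motifs and simple repeats counted were no more frequent at promoter summits than at admitted positions, given the intervals. On either strand within 100 bp of the summit, the TATA box letters TATAAA were present in 42.1% of promoter summits (40.01 to 44.2), against 43.9% of admitted positions. The W-box core TTGAC, bound by WRKY factors, was in 35.6% of promoter summits (33.6 to 37.6) and 36.2% of admitted positions, and the letters CCAAT in 36.7% (34.7 to 38.7) and 35.7%. The G-box CACGTG, bound by bHLH and bZIP factors, was in 2.48% of promoter summits (1.91 to 3.23), against 3.45% of all admitted positions and 3.21% at the same distances. The site II element TGGGCC was in 4.37% of promoter summits and 4.49% of admitted positions, the GA repeat GAGAGAGA in 2.53% and 2.63%, the DRE core GCCGAC in 1.84% and 1.65%, the telo-box AAACCCTAA in 1.61% and 1.32%, and a run of A of length 8 (AAAAAAAA) in 23.4% and 25.3%. The share at admitted positions lay inside the interval at promoter summits for each of these motifs except the run of A and the G-box, and for these it lay inside the interval when taken at the same distances (25.2% and 3.21%). A match is a description of letters and not a binding site.

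Promoter summits had sequence copies elsewhere more often than admitted positions did. A copy is another place in the genome that aligned to the window within 100 bp of the summit by BLASTN with at least 80% identity over at least 100 bp. Such a copy was found for 974 of 2175 promoter summits (44.8%, 42.7 to 46.9), against 18.8% of 19195 admitted positions tiled every 500 bp, which include places near summits. At 90% identity the shares were 19.9% at promoter summits and 11.03% at admitted positions, a difference of 8.87 percentage points in place of 26.0. At least 10 copies were found for 337 promoter summits (15.5%) and for 6.42% of admitted positions. Promoter summits with a copy had a median of 5, and the highest number was 464, at the summit upstream of UGT80B1, a sterol glucosyltransferase gene, which scored 447. In every 100 bp step the share was higher at the summits, between 39.2% and 50.3%, than at admitted positions, between 13.8% and 23.2%. The share in promoters was close to those at the summits of other places, which ran over 41.0% to 51.9%, so it was not particular to promoters.

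**Figure D4:**
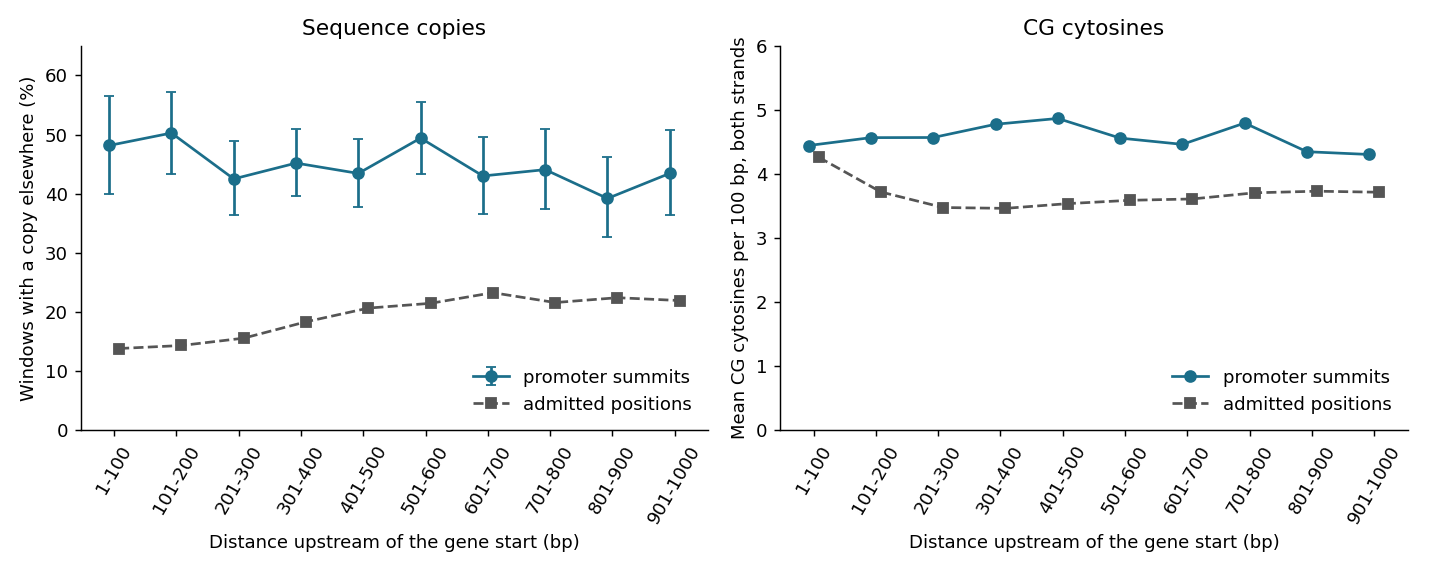
Share of windows with a sequence copy elsewhere in the genome (left, bars are Wilson 95% intervals) and mean CG cytosines per 100 bp (right), in 100 bp steps upstream of the gene start, at promoter summits and at admitted positions. The copy shares of 39.2% to 50.3% at promoter summits lie above the 13.8% to 23.2% at admitted positions in each step, and the CG means differ least in the first 100 bp.

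The best match of promoter summits with a copy had a median identity of 89.0%, against 91.9% for admitted positions with a copy, and on average 96.7% of the 50-mers within 250 bp were unique in the genome at promoter summits with a copy, against 81.7% at admitted positions with a copy. The authors kept only uniquely mapping reads, so reads lying wholly inside a stretch with an identical copy were not kept. The part of this in the differences above was not tested. Among positions with at least 90% unique 50-mers, 43.8% of promoter summits (41.7 to 46.0) had a copy, against 12.9% of admitted positions (12.4 to 13.4). At this mappability the median best identity was 88.3% at promoter summits and 87.8% at admitted positions, so the difference in identity did not hold there. The copies themselves often lay at Pol V summits. Leaving aside copies within 1000 bp of the window itself, 6354 of 16030 copies of promoter summits (39.6%) had a listed summit within 250 bp, against 12.9% of the 96892 copies of admitted positions. At least 1 copy with a summit was found for 753 of the 961 promoter summits with such copies (78.4%), against 47.9% for admitted positions. Neither comparison was restricted to positions with at least 90% unique 50-mers, so the part of mappability in them was not tested. In the count of copies, a window with many copies weighs more. The score differed little with copy number, and its intervals overlapped, with medians of 207 (192 to 223) for 1201 summits with no copy, 242 (220 to 271) for 637 with 1 to 9 copies and 218 (187 to 257) for 337 with 10 or more.

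Sequence was also shared among the promoters themselves. In all, 325 promoter summits (14.9%) fell into 97 groups linked by such matches, of which 62 were pairs and 15 had at least 5 summits. Admitted positions were not grouped in this way, so the share has no background. A match found from either window was enough, and groups were joined through chains of matches. A grouped summit can thus have no copy by the definition above, as that of AUF2 in the third group. The largest group, of 17 summits on all 5 chromosomes, included those of AT4G02100, a DnaJ co-chaperone gene, with a score of 1058, AT5G35680 with 664, the anaphase promoting complex gene APC10 with 492, the nitrate transporter gene NRT2.6 with 456, and AT2G04860 with 62, the lowest of the group. Their median score was 257, and their distances ran over 59 to 970 bp. The second group, of 14 summits on all 5 chromosomes, had a median score of 500 and a mean of 8.03 CG cytosines per 100 bp. It included the summits of AT2G18600 with 1353, AT5G26670 with 875, HWI1 with 747, MYB74 with 535, the vacuolar sodium/proton exchanger gene NHX1 with 507, and the abscisic acid receptor gene PYR1 with 254. The third group, of 12 summits, was AT-rich, with a median of 22.9% G and C bases within 100 bp, and had scores of 56 to 290 with a median of 115.5. It included the summits of NAC050 with 290, AT3G19950 with 274 and PLDBETA2 with 142. Summits that shared sequence thus lay at unlike distances and upstream of unlike genes, and the groups differed in level, since the third reached at most 290 and the second had a median of 500.

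The second group carried letters that are also found in tRNA genes. RNA polymerase III reads tRNA genes from an A box and a B box inside them, and short interspersed elements derived from tRNAs carry the same boxes. The B box core GGTTCGA and the A box part CTCAATTGG, both chosen after the sequences had been seen, were present together in 5 of the 14 windows of this group, AT3G21465 printed above among them, and in no other promoter summit. CTCAATTGG also holds the letters CCAAT on its other strand. Taken singly, GGTTCGA was in 7 of the 14 and CTCAATTGG in 8. Over all promoter summits, this group included, GGTTCGA was present in 70 (3.22%, 2.56 to 4.05). Its share was 1.27% at admitted positions and 2.73% over all listed summits. CTCAATTGG was in 14 promoter summits (0.644%, 0.384 to 1.08), of which 8 were in this group. Its share was 0.125% at admitted positions and 0.47% over all listed summits. The letters were chosen after sequences counted here had been seen, so these shares are no separate support. Of the 17 windows of the largest group, 1 held GGTTCGA and 0 held CTCAATTGG, and the 12 of the third group held neither.

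Some promoter summits had another listed summit or an annotated pseudogene nearby, but neither was particular to promoters. Another listed summit lay within 1000 bp of 483 promoter summits (22.2%, 20.5 to 24.0). The share was 11.6% (8.51 to 15.7) between divergent gene starts, 19.3% (16.7 to 22.3) in tandem gaps, 24.6% (22.5 to 26.9) in downstream-only gaps and 30.3% (28.8 to 31.9) in distal gaps. Inside genes or pseudogenes it was 25.4%, and over all listed summits 25.35%. A pseudogene, a class that in this annotation mostly carries no note, lay within 1000 bp of 229 promoter summits (10.5%, 9.31 to 11.9), against 5.995% of admitted positions. This share was lower between divergent gene starts (1.29%) and in tandem gaps (1.99%). It was higher in downstream-only gaps (12.3%), in distal gaps (20.6%), inside genes or pseudogenes (20.3%) and over all listed summits (15.8%). Per Mb of admitted bases, there were 429 promoter summits (359.8 to 507) within 500 bp of a pseudogene and 202 (192 to 212) more than 5000 bp from any. The density was also higher in longer gaps between genes. Gaps of up to 2000 bp held 188 promoter summits per Mb (170.2 to 207), and gaps over 20000 bp held 347 per Mb (279 to 427). The 90 summits in those longest gaps had a median score of 148.5 (120 to 222), against 220 (203 to 261) in the shortest, and these intervals overlapped.

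Promoter summits belonged to few genes, and to almost all of those singly. Of 27444 protein-coding genes, 2112 had at least 1 promoter summit (7.7%, 7.39 to 8.02). Only 13071 genes had admitted bases at all, and of these 16.2% had a promoter summit (15.5 to 16.8). In 63 genes there were 2 promoter summits, with a median spacing of 584 bp (full range 298 to 857 bp), and in 0 genes 3 or more. The highest summed score among these 63 was that of SFP1, a sugar transporter-like gene, with summits of 821 at 90 bp and 577 at 893 bp. Next were AT5G22100, with 420 at 112 bp and 736 at 763 bp, and AT3G45180, with 768 at 180 bp and 151 at 982 bp. These genes were picked after their values were seen, for having 2 summits.

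Genes of DNA methylation itself were among those with promoter summits. Of 43 genes listed for methylation, demethylation and the small RNA pathway behind it, 8 had a promoter summit (18.6%, 9.74 to 32.6), against 7.7% of all protein-coding genes, and 22 had admitted bases, with 511 summits per Mb of them (234 to 969.7), against 227 per Mb in all promoters. VIM1, whose protein binds methylated CG sites and is needed to keep CG methylation, had a summit of 1080 at 508 bp. ROS1 had 1058 at 45 bp. As background, the methylated ROS1 promoter is known in Arabidopsis to be required for ROS1 expression, and demethylases and RNA-directed DNA methylation act on it in opposite directions. DCL4, a dicer of small interfering RNA pathways, had 545 at 245 bp. SUVH9, whose protein reads methylated DNA and helps to bring Pol V to it, had 468 at 958 bp, next to an annotated pseudogene 11 bp away. CLSY1 (CHR38 in the annotation), which brings RNA polymerase IV to many of its sites, had 208 at 80 bp. The remaining genes of the list had low scores. HEN1, the small RNA methyltransferase gene, had 75 at 308 bp and 94 at 990 bp, NRPD1 (NRPD1A), the largest subunit of RNA polymerase IV, had 67 at 526 bp, and MET1, the CG maintenance methyltransferase gene, had 58 at 498 bp. The scores in this list thus ran over 58 to 1080, with a median of 208, close to the 219 of all promoter summits. The list did not hold every gene of these kinds, and its share, density and median are those of the listed genes only. Outside it, DMT2, a DNA methyltransferase gene, had 220 at 714 bp and 50 at 65 bp. RDR1, an RNA-dependent RNA polymerase gene also outside it, had 467 at 40 bp. DMT2 and RDR1 were picked after their values were seen. VIM1, ROS1, CLSY1, NRPD1 and MET1 had no sequence copy at their summits.

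Among genes of protein synthesis and turnover, the ribosomal protein list had an interval above the 227 per Mb of all promoters, and the proteasome, tRNA ligase and chaperone lists had intervals that held it. Ribosomal protein genes had 28 summits, or 402 per Mb (267 to 581), led by PSRP6 with 601, AT5G47930 with 592 and AT3G09630 with 529. Proteasome subunit genes had 5, or 673 per Mb (218 to 1570), with PAA1 at 203, PAA2 at 170 and PAF2 at 136. tRNA ligase genes had 6, or 493 per Mb (181 to 1073), with the organellar methionine enzyme OVA1 at 687, ALATS at 560 and AT5G04090 at 527. Heat shock protein and chaperone genes had 22, or 302 per Mb (189 to 457), with AT4G02100 at 1058, AT2G20920 at 955 and the histone chaperone gene HIRA at 646. Of all ribosomal protein genes, 8.14% had a promoter summit (5.69 to 11.5), close to the 7.7% of all genes.

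Transcription factor genes went the other way per admitted base. The 7 families together held 145 promoter summits per Mb (114 to 181), and 11.99% of their 634 genes with admitted bases had one (9.69 to 14.7), below 16.2%. Over all 856 genes the share was 8.88% (7.15 to 10.97), not below the 7.7% of all genes, because a larger part of these genes had admitted bases. Each family lay between 112 per Mb (WRKY genes, 41.1 to 244) and 162 per Mb (homeodomain genes, 83.9 to 284), and only the interval of the MYB genes, 136 per Mb (76.0 to 224), ended below the 227 per Mb of all promoters. The highest scores of the NAC, MYB, AP2/ERF and WRKY families were 1153 for NAC003 at 51 bp, 989 for MYB6, 866 for ORA59, a regulator of jasmonate and ethylene defense genes, and 763 for WRKY3. ATAF2 and NAC071, also of the NAC family, had 771 and 762. RPL and BLH4, homeodomain genes, had 701 and 477, and SPT, PYE and PRE1, of the bHLH family, had 583, 548 and 514. AGL92, AGL12 and AGL76, of the MADS-box family, had 476, 420 and 390. Summits were thus sparse upstream of these genes but not low in score, with a median of 223 over 78 summits.

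Other gene families lay on either side of the average. NLR disease resistance genes, which code for intracellular immune receptors, had 16 summits, or 391 per Mb (223 to 635), with AT5G36930 at 735, AT4G19520 at 669 and AT4G09420 at 453. F-box genes had 64, or 309 per Mb (238 to 394), led by AT1G19160 with 1088 at 274 bp, and S1 self-incompatibility genes had 9, or 356 per Mb (163 to 676), led by AT4G24974 with 456. Pentatricopeptide repeat genes, whose proteins act on organellar RNA, had 15, or 272 per Mb (152.5 to 449), led by AT1G73400 with 1187 at 561 bp. Cytochrome P450 genes had 11, or 112 per Mb (55.7 to 199.8), below the average, with CYP71B19 at 793, CYP97B3 at 707 and CYP89A9 at 631, and 9 of the 11 had a sequence copy. Defensin-like genes had 6, or 118 per Mb (43.4 to 258), led by AT1G13605 with 835, and SAUR genes 5, or 125 per Mb (40.4 to 291), led by AT4G09530 with 509. Receptor-like kinase genes had 21, or 205 per Mb (127 to 313), UDP-glycosyltransferase genes 8, or 210.0 per Mb (90.7 to 414), and lipid transfer and seed storage protein genes 7, or 147 per Mb (59.3 to 304). Genes of hypothetical or uncharacterised proteins had 184, or 209 per Mb (180.2 to 242), led after AT5G27860 by AT4G35690 with 1113 and AT5G39530 with 989. The intervals of the ribosomal, F-box and methylation lists lay above 227 per Mb and those of the P450 and MYB lists below it, and those of the other lists held it. The methylation interval began close to this value, at 234 per Mb, and counted the 2 summits upstream of HEN1 separately. Merging of nearby summits was not run for the lists.

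**Figure D5:**
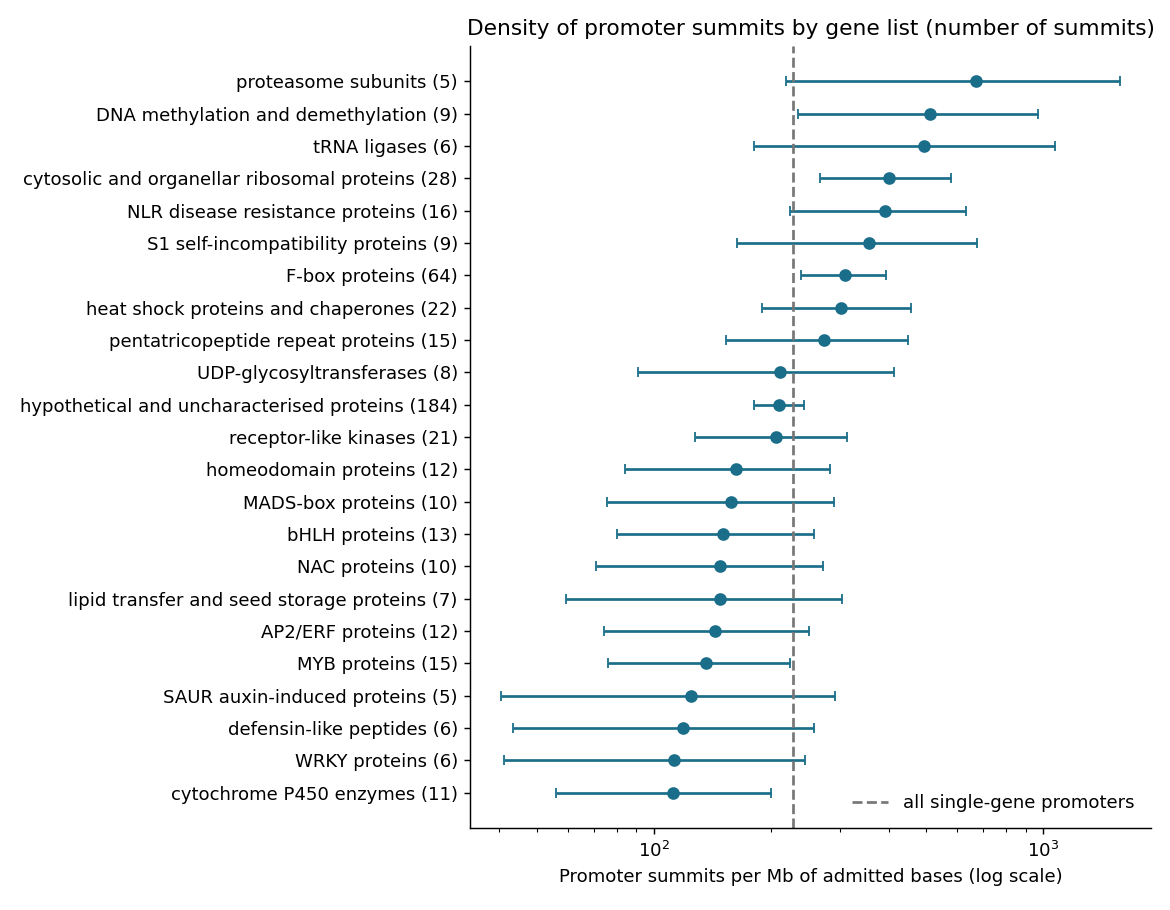
Promoter summits per Mb of admitted bases for each gene list (log axis), with exact Poisson 95% intervals and the number of summits in brackets; the dashed line marks all single-gene promoters, at 227 per Mb. Proteasome, methylation, tRNA ligase and ribosomal genes lie to the right, from 402 to 673 per Mb. The transcription factor families and the P450, defensin-like, SAUR and lipid transfer genes lie to the left, from 112 to 162 per Mb. Of these lists, only the intervals of the methylation, ribosomal, P450 and MYB genes leave out the dashed line.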

How the data were processed

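Per their methods, the authors took published reads of a Pol V ChIP and of its no-antibody control, mapped them to TAIR10 with Bowtie 1.0.0 (unique hits, no more than 2 mismatches allowed) and dropped duplicates with SAMtools 0.1.19. MACS2 called the peaks (q-value limit 0.05), and the deposited list holds the summits of peaks over 2-fold enrichment with a whole-number score for each, whose scale is not given in the sources used here. The tissue of those plants, the pooling of replicates and the read depth are not given there either. As 1 blank record names no place, it was left out.

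Each summit was placed against the RefSeq annotation of TAIR10.1, whose 5 nuclear chromosomes fit the listed positions. Summits were compared with the bases that the position rule admits, tiled every 100 bp, or every 500 bp for the search for copies with BLASTN 2.17.0 (word size 11, E-value limit 1e-05). Counts per Mb have exact Poisson intervals, shares Wilson intervals and medians distribution-free binomial intervals, all at 95%. Analyses used Python 3.11.15, NumPy 2.4.6, pandas 2.3.3 and SciPy 1.17.1, and each step was tested on simulated data.

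No test was made, since the list is 1 peak call. The members, gene lists and motifs were chosen with earlier results of these data known, and matches of gene names to the wrong family were removed after the lists had been matched. The genes named are the 12 highest-scoring summits, up to 3 highest-scoring genes of each list, every listed methylation gene with a summit, members of the 3 largest groups sharing sequence, and the 3 summits on each side of the distance limit, with any others marked as picked after their values were seen. Alternatives were the score limit, merging of nearby summits, the upstream distance, distance from other annotated features, mappability, window sizes, copy limits and leaving out each chromosome.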

Additional observations from a re-analysis of the deposited data

How the results depend on the processing

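Of 144 values recomputed under 15 alternatives, 104 stayed inside the interval of the reported value, and 40 did not. In all, 5 values changed sign. Taking only summits at or above the median score of the list gave 136 summits per Mb, a median GC content of 29.7%, a neighbour within 1000 bp for 6.69%, a promoter summit in 4.71% of genes and 4.74 CG cytosines per 100 bp. Merging summits within 1000 bp gave 202.6 per Mb, a median score of 250 and 7.08% of genes. With 500 bp upstream the values were 204 per Mb, a median distance of 301 bp, a score of 246, a neighbour for 20.2%, 4.65% of genes and 4.73 CG cytosines. With 2000 bp upstream they were 772 bp, a score of 196, 25.1%, 8.94% of genes and 4.46 CG cytosines. Away from other annotated genes and pseudogenes 6.08% of genes had a summit, and without chromosome 2 this was 7.35%, the only value that left its interval when a chromosome was left out. GC content within 100 bp had a median of 30.3%, and 60.7% had a neighbour within 3000 bp. A copy was found for 19.9% at 90% identity and for 64.6% at a length of 50 bp, and for admitted positions 11.03% and 27%. The difference in CHH cytosines between promoter summits and admitted positions changed sign, to 0.0034 per 100 bp with the median score limit and to 0.10 with 2000 bp upstream, so no direction holds for it. The difference in GC content within 250 bp, 0.074 percentage points with an interval that held 0, turned to -0.18 with 500 bp upstream, -0.023 away from other features and -0.010 with 90% unique 50-mers. The differences in CG cytosines, copies and score against distal summits kept their sign in each alternative run, which did not include copies with 2000 bp upstream or the distal score under the score limit. The cause of the changes under another distance, score limit or window was not tested. Without replicates or read depth, neither the error of a score nor the chance of a missed summit can be given. No paired analysis was possible because no samples enter a comparison.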
